A study of Mus musculus with 24 samples.

Results

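Examined were 5 genes of inflammation that have been described as targets of the nuclear receptor Rev-erbα in macrophages and vessels. They are the chemokine gene Ccl2, the cytokine gene Il6, the receptor genes Cx3cr1 and Tlr4, and the matrix protease gene Mmp9. They were taken by name, and every listed Rev-erbα site from 20 kb upstream to 20 kb downstream of the gene body was assigned to them, in the mm9 build with GENCODE vM1 gene models. These are 5 of 22350 protein-coding genes on chromosomes 1 to 19 and X. A peak list each came from ChIP-seq for Rev-erbα in a fat depot, epididymal white adipose tissue (eWAT, 2 libraries), and in a midbrain region, the ventral tegmental area (1 library, called brain here). A list of strand-specific borders came from ChIP-exo in liver (2 libraries), an assay that digests bound DNA with exonucleases until a crosslinked protein stops them. All 5 libraries came from wild-type C57BL/6 mice (C57BL/6J Wild Type in the genotype label) at zeitgeber time 10, that is 10 h after lights on, and all used the same Rev-erbα antibody; the labels give no age or sex. The other 13 groups (19 of 24 samples), among them the input libraries and the Rev-erbα mutant livers, were not analysed here. No isolated macrophages are among these samples, and each is a mixture of cell types, so the share of cells that carry a site and its occupancy per cell cannot be told apart.

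Rev-erbα (gene Nr1d1) is a heme-binding repressor of the circadian clock. It binds as a monomer to the half-site AGGTCA behind an A/T-rich stretch, or as a pair to direct repeats of that half-site, and recruits the NCoR/HDAC3 corepressor complex. In macrophages Rev-erb proteins are known to repress distal enhancers of inflammatory genes, many of which are opened by the myeloid factor PU.1 and activated through NF-kB and AP-1. Ccl2 draws monocytes into inflamed tissue, Il6 encodes a cytokine of the acute phase response, Cx3cr1 is the fractalkine receptor of monocytes and microglia, Tlr4 is the receptor for bacterial lipopolysaccharide, and Mmp9 encodes a gelatinase secreted by macrophages and neutrophils.

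The peaks listed at these genes had low scores for their lists, and the eWAT peaks carried the Rev-erbα half-site. An eWAT peak lay in the window of Ccl2, Cx3cr1 and Mmp9 (3 of 5 genes, against 28.7% of all protein-coding genes), and a brain peak in that of Cx3cr1 and Mmp9 (2 of 5, against 41.5%). Il6 and Tlr4 had a peak in neither tissue, as did 47.3% of all genes, and Cx3cr1 and Mmp9 had one in both, as did 17.5%. A liver border lay in the window of all 5, but also in that of 87.7% of all genes. No peak of one tissue at these genes overlapped a peak of the other, whereas over the whole lists 7.83% of eWAT and 6.61% of brain peaks did. With 5 chosen genes and 1 list per tissue no test of these counts was made.

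The sequences of the 3 eWAT peaks are shown because each holds the half-site, and the upstream brain peak of Mmp9 is shown as the neighbouring site without it. All are 150 bp long, from the plus strand of mm9. Capitals mark every match to 1 of 7 motifs searched on both strands: the half-site AGGTCA; the monomer element, in which AANT stands directly before the half-site; the direct repeat element, in which the half-site is repeated in the same direction after any 2 bases; TGANTCA for AP-1; AGGAAGT for PU.1; TTGCNNAA for C/EBP; and the NF-kB consensus. Matches to either element contain the half-site, so these 3 overlap.
Mmp9 eWAT peak, chr2:164768397-164768546: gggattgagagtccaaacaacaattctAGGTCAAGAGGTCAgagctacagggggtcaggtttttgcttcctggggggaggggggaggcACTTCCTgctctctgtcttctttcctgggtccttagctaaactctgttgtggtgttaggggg
Cx3cr1 eWAT peak, chr9:119946609-119946758: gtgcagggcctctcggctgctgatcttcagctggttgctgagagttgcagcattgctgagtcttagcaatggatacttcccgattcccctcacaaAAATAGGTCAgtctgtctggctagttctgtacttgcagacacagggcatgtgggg
Ccl2 eWAT peak, chr11:81861702-81861851: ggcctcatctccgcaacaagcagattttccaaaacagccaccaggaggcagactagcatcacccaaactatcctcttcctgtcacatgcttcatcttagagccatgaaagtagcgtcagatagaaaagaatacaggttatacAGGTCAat
Mmp9 upstream brain peak, chr2:164764358-164764507: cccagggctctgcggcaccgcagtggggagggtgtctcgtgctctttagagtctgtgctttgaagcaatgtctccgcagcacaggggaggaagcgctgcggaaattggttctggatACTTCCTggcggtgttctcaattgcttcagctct

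The half-site was present in 3 of 3 eWAT peaks, against 19.0% of all 9016 eWAT peaks, and in 0 of 3 brain peaks, against 11.7% of all 10687 brain peaks. A full response element, of either kind, was present in 2 of the 3 eWAT peaks, against 2.53% of the eWAT list, and in none of the brain peaks, against 1.32% of the brain list. The Mmp9 peak holds the direct repeat AGGTCAAGAGGTCA, of a kind (any 2 bases between the half-sites) found in 17 eWAT peaks of the whole list (0.189%). The Cx3cr1 peak holds the monomer element AAATAGGTCA, of a kind found in 2.36% of eWAT peaks. The Ccl2 peak holds only the half-site, at its downstream edge. The PU.1 motif was present in the Mmp9 eWAT peak and in the upstream Mmp9 brain peak; it was found in 6.30% of eWAT and 4.44% of brain peaks. None of the 6 peaks held an AP-1, C/EBP or NF-kB motif, which 7.15%, 18.7% and 1.51% of eWAT peaks and 4.32%, 5.63% and 2.14% of brain peaks did. The GC content of the eWAT peaks of Ccl2, Cx3cr1 and Mmp9 was 45.3%, 52.7% and 53.3%, around the list median of 48.7%. That of the brain peaks was 55.3% at Cx3cr1 and 57.3% and 67.3% at Mmp9, at or above the list median of 55.3%.

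**Figure D1:**
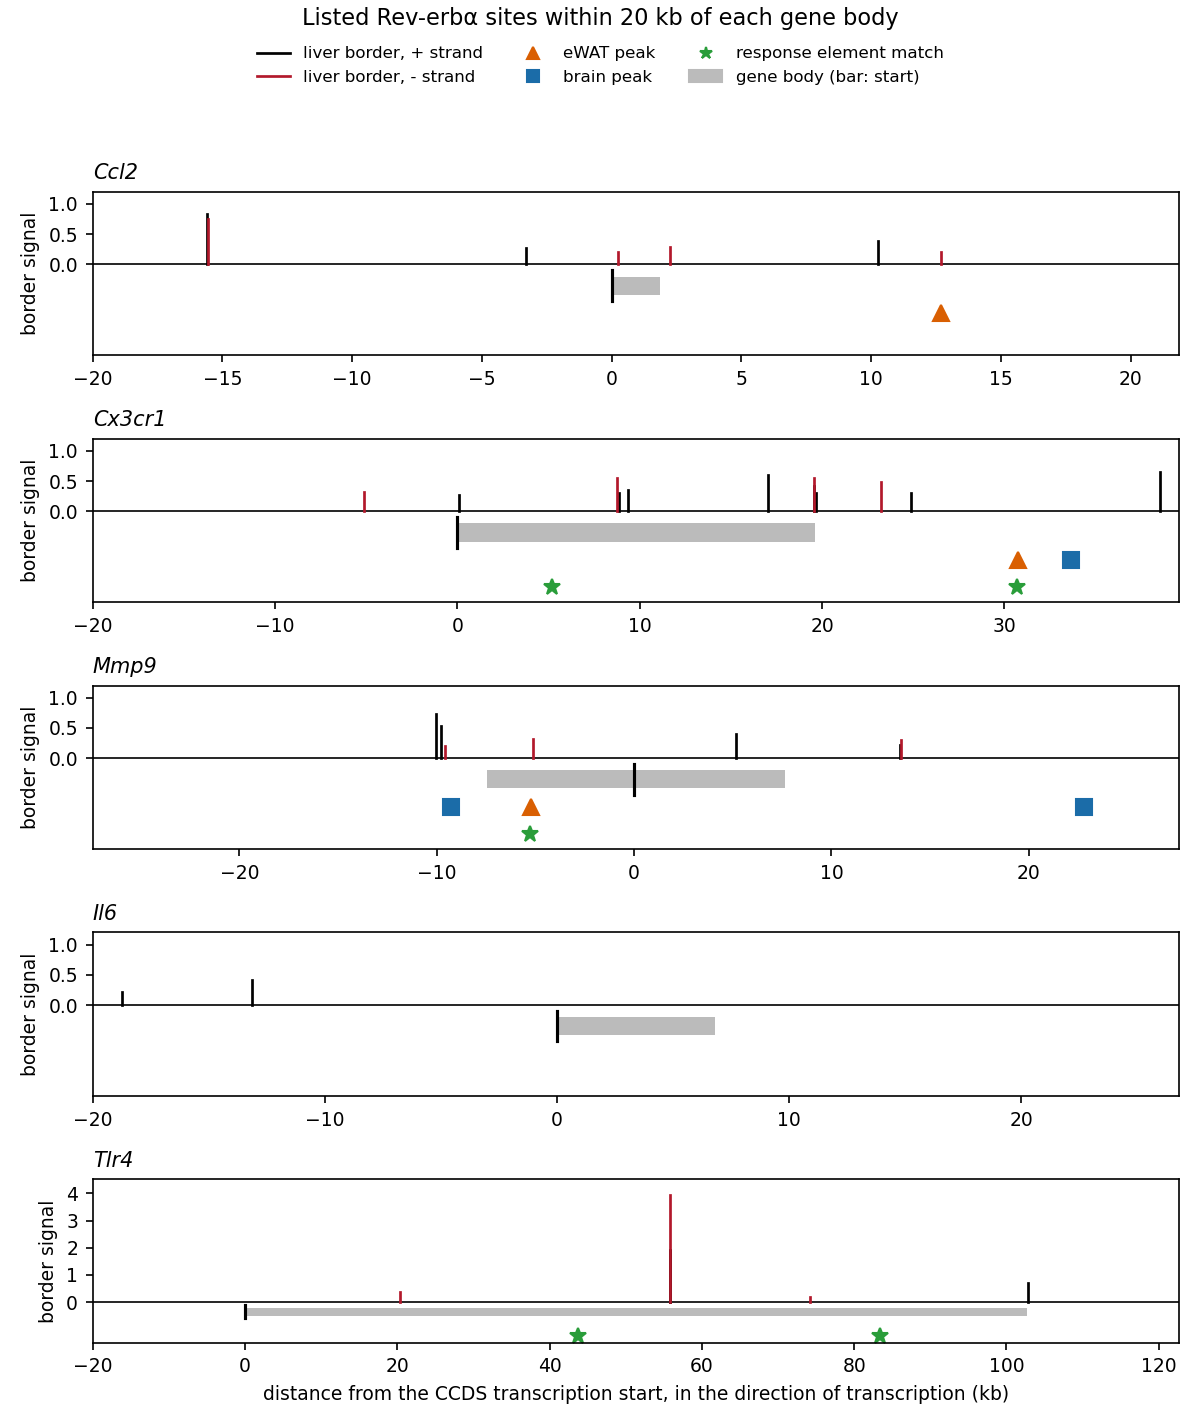
Listed sites in the window of each gene, by distance in kb from the start of the transcript with a CCDS coding sequence, in the direction of transcription. Vertical lines are liver borders with their signal (black, plus strand of the genome; red, minus strand), triangles eWAT peaks, squares brain peaks, stars matches to a response element and grey bars gene bodies. The eWAT peaks of Cx3cr1 and Mmp9 sit on a star, while Il6 has 2 borders and no peak, and the highest borders are those inside Tlr4.

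Ccl2 (ENSMUSG00000035385.5, chromosome 11, 81849073 to 81850955, plus strand) encodes the ligand CCL2. Its single eWAT peak had the authors' score of 13.2, below the list median of 14.2, with 5025 of 9016 peaks scoring higher. The peak is intergenic, 12703 bp downstream of the Ccl2 start, but its nearest start, at 2562 bp, is that of Ccl7, the next chemokine gene of the cluster. A minus-strand liver border with a signal of 0.214 lay 1 bp from its centre, the only one of the 6 peaks with a border within 100 bp (30.0% of all eWAT and 36.4% of all brain peaks had one). No brain peak was listed within 60 kb of the gene body, the nearest lying 60744 bp upstream. Just outside the window, 24964 bp beyond the gene end, a stronger eWAT peak with a score of 25.3 lay 4594 bp from the start of Ccl11, the eotaxin gene.

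The 7 liver borders of Ccl2 had signals from 0.203 to 0.834, and 2 of them exceeded the list median of 0.471. Those 2 formed an opposite-strand pair 18 bp apart, 15585 bp and 15567 bp upstream of the start in intergenic sequence. The plus border had a signal of 0.834 and the minus border one of 0.743, with 44739 and 57125 of 245360 borders higher. A border with a signal of 0.203 lay inside the gene, 256 bp downstream of the start in an intron, where the opposite-strand gene model Gm17268 overlaps Ccl2. The first border outside the window, 20191 bp upstream, had a signal of 0.677. The stretch around the pair holds none of the 7 motifs, and is shown for comparison with the peaks; the plus border is base 31 and the minus border base 49 of 79.
Ccl2 upstream border pair, chr11:81833458-81833536: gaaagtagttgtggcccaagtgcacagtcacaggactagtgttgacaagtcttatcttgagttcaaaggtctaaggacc

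Il6 (ENSMUSG00000025746.7, chromosome 5, 30339701 to 30346508, plus strand) encodes the ligand interleukin 6. It had no listed peak in either tissue, and its nearest eWAT peak lay 64798 bp upstream with a score of 10.1, the lowest in the list. Its nearest brain peak, with a score of 47.3, lay 86199 bp downstream, 83 bp from the start of another gene. Of all protein-coding genes, 51.1% had their nearest eWAT peak at least as far from the gene body and 36.3% their nearest brain peak. The liver list held 2 borders, both on the plus strand and intergenic, 18717 bp and 13154 bp upstream. Their signals of 0.222 and 0.411 were both below the list median, and neither had a partner on the other strand. With 4.27 borders per 100 kb of window, Il6 stood below 73.9% of all genes.

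Tlr4 (ENSMUSG00000039005.7, chromosome 4, 66488618 to 66591318, plus strand) encodes a receptor. It likewise had no listed peak, and it was farther from peaks than the other members: the nearest eWAT peak lay 377133 bp downstream and the nearest brain peak 344510 bp upstream. Only 15.9% of genes were as far from an eWAT peak and 15.8% from a brain peak. Its 6 liver borders spread over a long window (142701 bp), which gives 4.20 per 100 kb, below 74.2% of all genes.

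Of these 6 borders, 3 lay at most 36 bp apart and were the strongest at any of the 5 genes. The plus borders had signals of 1.91 and 1.89, and the minus border, 36 bp and 25 bp downstream of them, had a signal of 3.93. Only 1083 of 245360 borders were higher than the last, and 5872 and 6008 were higher than the plus borders. Of the 3, only the minus border had a deposited p-value of 0.01 or less. The cluster is intronic, and its minus border is 55872 bp from the Tlr4 start. It is 40656 bp past the end of the transcript with the CCDS coding sequence, so that 1 of 4 annotated Tlr4 transcripts spans it. The remaining 3 borders had signals of 0.389, 0.191 and 0.692, the last of them 94 bp past the gene end. The sequence of the cluster holds none of the 7 motifs; the plus borders are bases 31 and 42 and the minus border base 67 of 97.
Tlr4 intron border cluster, chr4:66544424-66544520: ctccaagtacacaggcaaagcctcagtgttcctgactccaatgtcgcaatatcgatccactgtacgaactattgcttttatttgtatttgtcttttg

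Cx3cr1 (ENSMUSG00000052336.5, chromosome 9, 119957811 to 119977400, minus strand) encodes the receptor for the chemokine fractalkine. It had 1 peak in each tissue, both beyond its end: the eWAT peak 11128 bp and the brain peak 14067 bp past the gene body, with centres 2939 bp apart. The eWAT peak scored 10.1, the lowest value in its list, which 1211 peaks, itself included, share; 7805 of 9016 were higher. The brain peak, chr9:119943670-119943819, scored 21.8, below the brain median of 25.5, with 6984 of 10687 peaks higher. Both are intergenic, and the nearest start of either was that of Xirp1, an actin-binding muscle gene, at 13967 bp and 11028 bp. Neither had a liver border within 100 bp, the nearest lying 5821 bp and 4871 bp away. Just outside the window, 20631 bp past the gene end, the brain list held another peak, scoring 18.2.

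The 12 liver borders of Cx3cr1 were the most at any of the 5 genes, yet 37.7% of all genes had more per 100 kb (20.1 at Cx3cr1). Their signals ran from 0.272 to 0.653, with 5 above the list median. One lay 72 bp downstream of the start in the UTR, with a signal of 0.272 on the plus strand. A pair 17 bp apart lay at the other end of the gene, also in the UTR, with signals of 0.415 and 0.548. The strongest border, at 0.653, lay 18938 bp past the gene end, and the first one outside the window, at 21369 bp, was stronger with 1.51. The borders inside the gene body numbered 7.

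Mmp9 (ENSMUSG00000017737.2, chromosome 2, 164766280 to 164781350, plus strand) was the only one of the 5 genes with a peak inside its body. Its eWAT peak lies in an intron of the longer transcript model, 2191 bp downstream of that model's start, and at -5248 bp, that is upstream, of the start of the transcript with the CCDS coding sequence. The peak scored 11.1, with 6685 of 9016 eWAT peaks higher. The nearest liver border, a minus-strand one with a signal of 0.323, lay 114 bp from the peak centre, just past the 100 bp used here. The upstream brain peak scored 18.2, with 9968 of 10687 brain peaks higher, and lay 1848 bp upstream of the longer model and 4039 bp from the eWAT peak. The second brain peak, chr2:164796467-164796616, scored 21.8 and lay 15191 bp past the gene end in an intron of Slc12a5. That gene encodes the neuronal potassium-chloride cotransporter KCC2, and its start is the nearest, at 2800 bp.

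The 7 liver borders of Mmp9 had signals from 0.200 to 0.737, with 2 above the list median. There were 3 upstream of the longer model, at 2598 bp, 2372 bp and 2157 bp, with signals of 0.737, 0.527 and 0.200. The nearest of them was 309 bp from the upstream brain peak. A pair 51 bp apart, with signals of 0.221 and 0.300, lay in an intron of Slc12a5. One border, with a signal of 0.393, fell in a coding exon of Mmp9.

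In all, the 5 windows cover 346053 bp and held 3 eWAT peaks, 3 brain peaks and 34 liver borders. That is 0.867 peaks per 100 kb for either tissue, against 0.342 for eWAT and 0.405 for brain over the chromosomes. For borders it is 9.83 per 100 kb against 9.30. The chromosome values include sequence far from genes, unlike the gene windows. The median window of all protein-coding genes held 0 peaks of either tissue and 13.5 borders per 100 kb. All 6 peaks scored below the median of their list, by the values given above. Peak scores are whole multiples of 1 step per list (1.01 in eWAT and 3.64 in brain, within the rounding of the file). In these steps the eWAT peaks of Cx3cr1, Mmp9 and Ccl2 stood at 10, 11 and 13, where the list begins at 10 and has its median at 14. The brain peaks stood at 5, 6 and 6, where the list begins at 4 and has its median at 7. Among the 34 borders, 13 exceeded the list median, 9 were in a pair with a partner 5 to 60 bp away (19.8% of all borders), and 17 had a deposited p-value of 0.01 or less (32.6% of all borders).

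**Figure D2:**
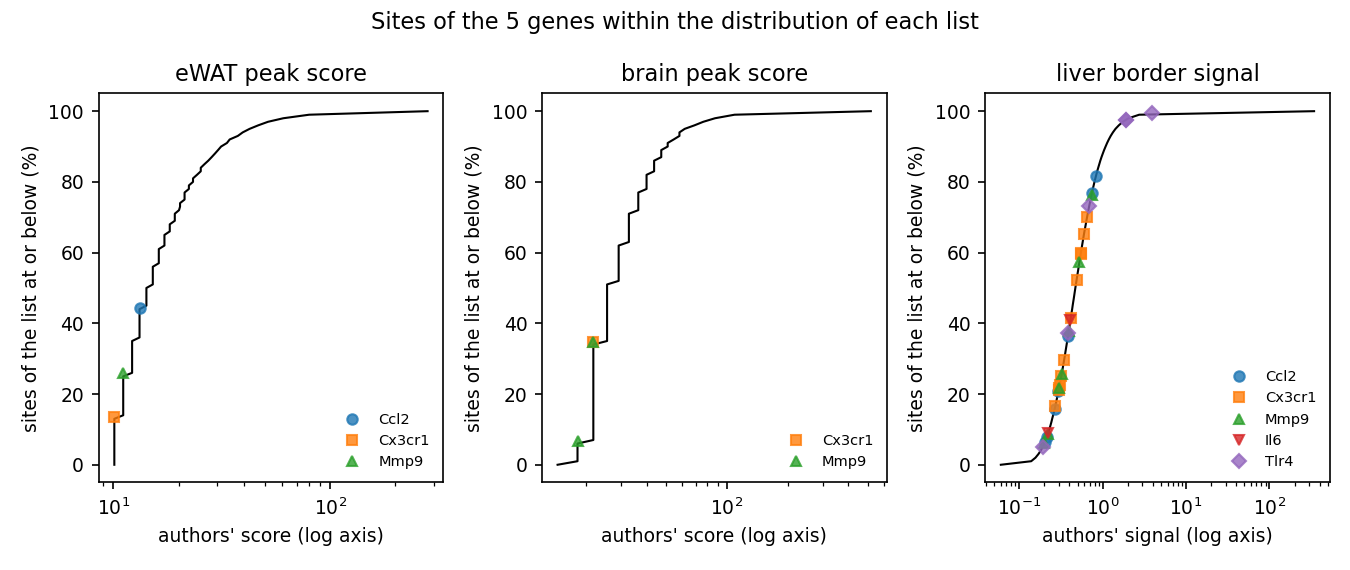
Authors' score or signal of each listed site (x, log axis) against the percentage of the same list at or below it (y), for all sites of the list (black line) and the sites of the 5 genes (symbols). Every peak symbol lies below 50%, while the Tlr4 borders reach 99.6% of the liver list.

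**Figure D3:**
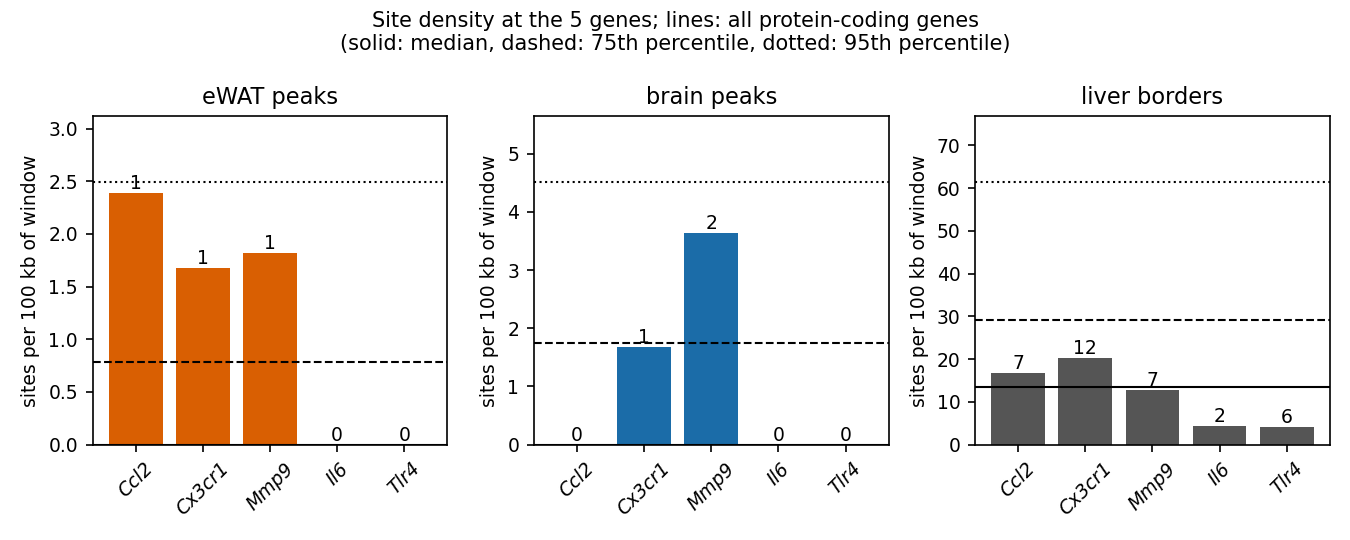
Listed sites per 100 kb of window at each gene, with the number of sites above each bar. Lines give the median, the 75th and the 95th percentile over all protein-coding genes. No gene passes the 95th percentile in any list, and Ccl2 comes nearest in eWAT with 2.39 peaks per 100 kb.

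Response elements outside the peaks were looked for over the whole windows. There were 4 matches to the monomer element, 2 in the window of Cx3cr1 and 2 in that of Tlr4, and 1 to the direct repeat, the one in the Mmp9 peak. The second Cx3cr1 match (TGACCTAGTT on the plus strand) lies in the intron 5171 bp downstream of the start, 3566 bp from the nearest border. The Tlr4 matches (TGACCTATTT and TGACCTAGTT) lie in introns 43738 bp and 83378 bp downstream of the start, 12098 bp and 9192 bp from the nearest border. Over the chromosomes the monomer element had 22901 matches, of which 1.04% lay within 100 bp of an eWAT peak centre, 0.707% of a brain peak centre and 2.47% of a liver border. The direct repeat had 1066 matches, with 2.81%, 1.59% and 7.79%. Most matches over the chromosomes thus had no listed site nearby, and the Mmp9 match is 1 of 30 direct repeats near an eWAT peak.

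In the 1 kb upstream of the starts of the CCDS transcripts, none of the 5 genes held a response element, which 0.740% (monomer) and 0.0206% (direct repeat) of 19456 such promoters did. No peak or border was listed in these 5 promoters. The half-site was present in 4 of them (all but Ccl2), against 45.4% of all promoters. The NF-kB consensus lay at -82 bp in Il6 and at -514 bp in Mmp9, a motif found in 12.2% of promoters. The AP-1 motif was present in the same 2 promoters (23.2% of all), as was that of C/EBP (35.1%), and the PU.1 motif in those of Ccl2 and Tlr4 (21.6%).

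Other inflammatory genes were examined in the same windows, as 4 lists of 54 genes that leave out the 5 above. Neighbouring genes in these lists can share a peak. An eWAT peak was listed for 27 of 54 genes (28.7% of all genes) from 35 distinct peaks, and a brain peak for 19 (41.5%) from 29. With peaks above the list median only, the counts were 13 and 14, against 16.7% and 26.4% of all genes. The median score of those eWAT peaks was 13.2, the score of the Ccl2 peak, and that of the brain peaks 29.1, above all 3 brain peaks described here. The Ccl2 eWAT peak is itself among the 35, because it also lies in the windows of Ccl7 and Ccl11. The eWAT values are thus not independent of that peak.

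Chemokines and their receptors had an eWAT peak for 8 of 15 genes and a brain peak for 1. The eWAT peaks with the highest scores were that of 25.3 in the UTR of Ccl11, which also falls in the window of Ccl7, and one of 24.3 lying 15808 bp downstream of Cxcl2, a neutrophil chemokine. The windows of Ccl7 and Ccl11 overlap that of Ccl2 and also hold its eWAT peak. The gene with brain peaks was Cx3cl1, which encodes the ligand of Cx3cr1: its best brain peak lay 27 bp downstream of its start with a score of 43.6, against 21.8 for the Cx3cr1 brain peak. In brain a site was thus listed in the window of this ligand, at its start, and of its receptor, past its end. Of all genes, 41.5% had a brain peak in the window, and the start nearest to the Cx3cr1 brain peak is that of Xirp1.

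Toll-like receptor and NF-kB genes had an eWAT peak for 7 of 15 and a brain peak for 10 of 15. Like Tlr4, 3 of the 15 had neither, against 47.3% of all genes. They were Ly96, the Tlr4 co-receptor MD-2, Lbp, the lipopolysaccharide-binding protein, and Irak1, a kinase of the pathway. Cd14, another gene of this list, had a brain peak of 18.2 and no eWAT peak. The eWAT peak of the highest score, 69.9 in the window of Tlr9, lies in an intron of the neighbouring heme synthesis gene Alas1. Next came Nfkb1, the p50 subunit of NF-kB (19.2, intron), and Myd88, the adaptor of toll-like receptors (18.2, 9657 bp downstream of the start). In brain the highest were Nfkbia, the inhibitor of NF-kB (43.6, coding exon), and Ticam1, the other adaptor of Tlr4 (43.6, 38 bp downstream of the start). The best brain peak in the window of Myd88 (40.0) lies in the neighbour Xylb.

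Cytokines and their receptors had an eWAT peak for 7 of 15 and a brain peak for 4. Among genes of Il6 signalling, Il6st, the signal-transducing receptor subunit gp130, had no peak in either tissue, as Il6 itself and 47.3% of all genes. In liver these genes differed, with 33 borders in the 71853 bp window of Il6st and 2 in the 46808 bp window of Il6. Many borders were not particular to Il6st: Il6ra, Stat3 and Socs3 had 57, 43 and 40. The median over all genes was 10 per window, and these counts were not adjusted for window length. Peaks were listed in the window of Il6ra, the ligand-binding receptor, in eWAT (21.3, in an intron of the neighbour She) and brain (32.7, intron). Socs3, the feedback inhibitor, had one in eWAT (17.2) and in brain (43.6). Stat3, the transcription factor downstream, had a brain peak in an intron (36.4). The eWAT peak in the Stat3 window (12.2) lies in a coding exon of the neighbour Stat5a. Nlrp3, the inflammasome sensor, had an eWAT peak of 16.2 at -7756 bp from its start.

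Matrix metalloproteinases and their inhibitors had an eWAT peak for 5 of 9 and a brain peak for 4. The lowest of their best peaks were that of Timp2 in eWAT, with 10.1 against 11.1 at Mmp9, and that of Timp3 in brain, with 21.8, the score of the higher Mmp9 brain peak. Among the highest, Mmp2, the other gelatinase, had a brain peak of 163.6 in its intron with 38 of 10687 peaks higher, and an eWAT peak of 21.3. Mmp14, an activator of Mmp2, had a brain peak of 101.8 and an eWAT peak of 18.2, 12611 bp and 12590 bp downstream of its start. Timp3, an inhibitor, had an eWAT peak of 64.8 in an intron, where the gene Syn3 also lies, and the best brain peak in the window of Timp2 (101.8) lies in the UTR of Usp36.

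**Figure D4:**
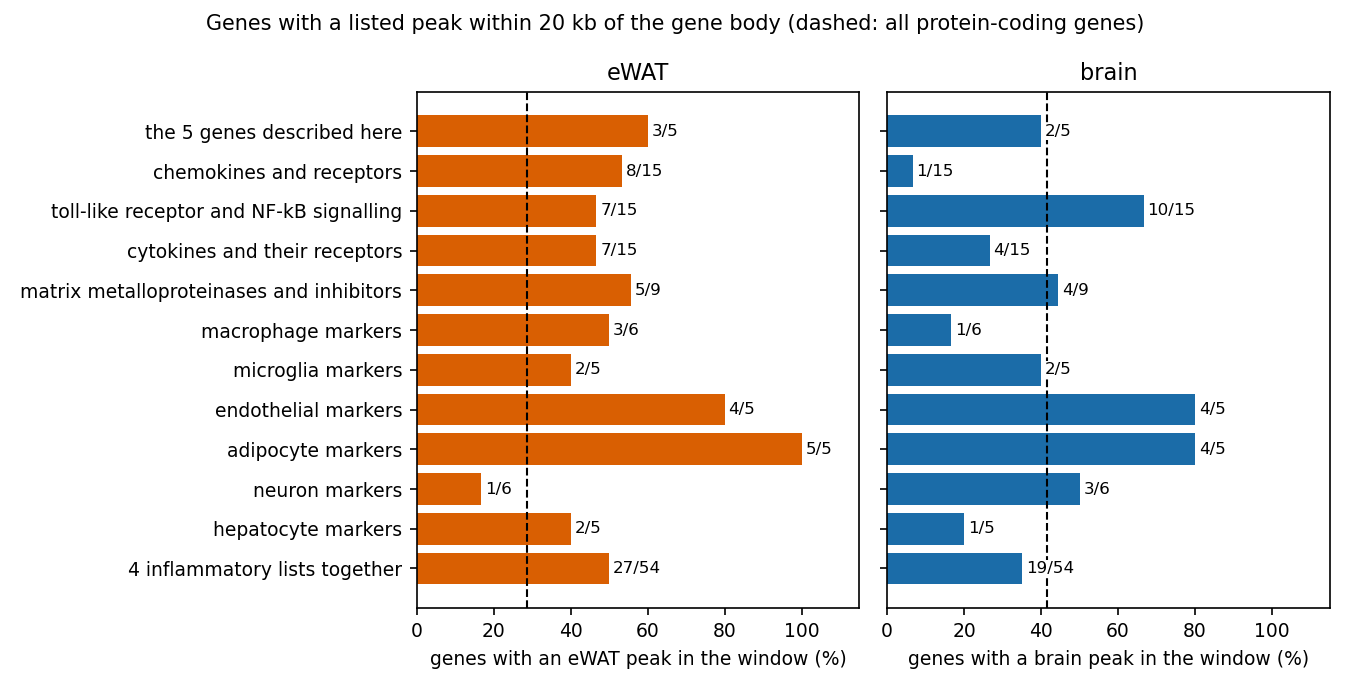
Percentage of the genes of each list with an eWAT (left) or brain (right) peak within 20 kb of the gene body, with the counts beside the bars. The dashed line is the share of all protein-coding genes, 28.7% in eWAT and 41.5% in brain.

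The genes of the 4 lists most like each member were found by Euclidean distance over log2(1 + sites per 100 kb) in the 3 tissues, a measure over only 3 points. Ccl2 was nearest to Ccl5 (distance 0.305), Tlr3 (0.324) and Csf1 (0.675). Cx3cr1 was nearest to Tlr2 (0.407), Mmp2 (0.702) and Timp3 (0.784), and Mmp9 to Tlr2 (0.715), Mmp2 (0.900) and Timp2 (1.34). Il6 and Tlr4 were both nearest to Il10, Timp1 and Ccl8 (0.0428, 0.0575 and 0.139 from Il6), each of which had no peak and 2 borders.

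Marker genes of the cell types that these tissues can hold were counted in the same way; a listed site at a marker is not a measure of its expression. All 5 adipocyte markers had an eWAT peak, and 3 of 6 neuron markers a brain peak, while 4 of 5 adipocyte markers had a brain peak too; Th and Slc6a3, the dopamine neuron markers of the list, had none in brain. The 5 hepatocyte markers had a median of 184.6 liver borders per 100 kb, against 12.7 for the 5 genes described here and 13.5 for all genes. Macrophage markers had an eWAT peak for 3 of 6 (Csf1r, Lyz2 and Mrc1) and a brain peak for 1 (Cd68). Microglia markers had one for 2 of 5 in each tissue, and endothelial markers for 4 of 5 in each. The shares over all protein-coding genes were 28.7% in eWAT and 41.5% in brain. These counts were not adjusted for window length, whose median over all genes was 55427.5 bp. Windows ran from 44230 bp to 53658 bp for the adipocyte markers and from 82878 bp to 179906 bp for the endothelial ones. For the 3 neuron markers listed in brain they ran from 108976 bp to 553333 bp. The part that macrophages, microglia or endothelial cells of the tissues have in the peaks described here was not tested.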

How the data were processed

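Rev-erbα binding sites were taken from 1 eWAT peak list, 1 brain peak list and 1 liver ChIP-exo border list, with no value per replicate; the sequencing depth behind them is unknown. Bowtie 0.12.8 (ChIP-seq), Bowtie 1.1.1 (ChIP-exo), HOMER and mm9 are named, without roles, per the submitters' processing notes; thresholds, use of inputs and pooling: not given in the sources used here. The deposited peak score has no stated unit, so scores were compared only within a list. The borders carry a signal and a p-value, per the file headers, of unstated scale and test. All coordinates are 1-based and fit the mm9 chromosome lengths.

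A site was placed by its central base. A border was called paired when the opposite strand had one 5 to 60 bp away, plus before minus. Sequences were read from the mm9 genome (python 3.11.15, pysam 0.24.0, samtools 1.23.1), and counting and motif search were tested on simulated data. A response element means either the monomer element or the direct repeat. The named genes are the 5 members and the genes with the nearest start to a site. Added to them are up to 3 genes per list and tissue by peak score, and 3 genes per member by likeness. Genes of the marker lists named singly, and Il6st, Ly96, Lbp, Cd14 and Irak1, were chosen after their values were seen. The members and lists were chosen with earlier results of these data known. No significance test was made. Alternatives were the window, the score or p-value limit, the border distance, the overlap and the motif width.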

Additional observations from a re-analysis of the deposited data

How the results depend on the processing

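The counts of these 5 genes with a peak rest on sites of low score, which at Ccl2 and Cx3cr1 also lie more than 10 kb from the gene body. With peaks scoring above the list median only, 0 of 5 genes kept one in eWAT and 0 in brain (16.7% and 26.4% of all genes did). Within 10 kb of the gene body, 1 gene remained in eWAT and 1 in brain, Mmp9 in both (22.5% and 34.7% of all genes). Within 20 kb of any start, gene bodies left aside, 1 gene had a brain peak, and the eWAT count was 2. With borders within 200 bp, 2 of the 3 eWAT peaks had one, Mmp9 being added. No share over all genes or all peaks was taken for these 2 settings, so their counts have no background beside them. The liver count was 5, or 4 within 10 kb, with paired borders only or with signals above the median, where 82.7%, 51.0% and 74.7% of all genes had one. The counts of shared peaks (0), of brain peaks with a border (0) and of peaks with a response element (2) were equal under every alternative tried for them. No paired analysis was possible because no result comes from a test and the files hold 1 list per group; for the same reason no replicate could be left out. Depth is unknown, so a gene without a listed peak may have binding below the authors' threshold.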
